A study of Mus musculus with 9 samples.

Results

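The direct comparison of TGF-β1 (transforming growth factor β1) with BMP4 (bone morphogenetic protein 4) was examined in sclerotome, the part of the somite that gives rise to the vertebrae and the intervertebral discs. It held 6 of the 9 arrays of the series, 3 from cultures with TGF-β1 at 5 ng/ml and 3 from cultures with BMP4 at 50 ng/ml. All 45037 non-control probe sets of the 45101 on the mouse genome array were tested, and 18193 genes were described through 1 probe set each. All cultures, including the 3 untreated ones that gave the reference, were micromass cultures of wild type mouse sclerotome from E11.5 embryos, in which densely plated mesenchymal cells can form cartilage. They shared a medium with serum and ascorbic acid, and RNA was taken after 8 h of treatment. The treatment record places the factors after a night in culture and the culture methods place them soon after attachment. The experiment was set up 3 separate times, so that each array stands for its own culture, and precision is set by having 3 of them per group.

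TGF-β1 and BMP4 belong to the same family of secreted dimers but act through different receptors. TGF-β1 signals mainly through Smad2 and Smad3, and BMP4 through Smad1, Smad5 and Smad9. In the embryonic spine BMP signals favour cartilage, which is built from type II collagen and the sulfated proteoglycan aggrecan under the control of Sox9, and which becomes the vertebral body. TGF-β signals are known for their role in the fibrous tissues that join the cartilages, the annulus fibrosus of the disc and the tendons, whose cells express the transcription factor gene Scx. The question was which genes separate the cultures on these 2 sides after a short exposure.

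The deposited values are log2 signals set relative to the median of the 9 arrays for each probe set, so that a value of 0 is that median and no expression level can be read from it. Replicate numbers paired the factors: arrays with the same number deviated together from their group means, with correlations of 0.29, 0.497 and 0.377 over the probe sets for BMP4 and TGF-β1 arrays 1, 2 and 3. Values from a model with the replicate number as a block are therefore given for many results. A count given without one can also change with the block. Fits that left out arrays, given below as checks, had no block and so did not use the pairing. The 3 arrays numbered 2 lay apart from the others of their group on the third principal component, which held 16.7% of the variance, and the spread of values over probe sets ran from 0.177 to 0.258 (SD) over the 9 arrays. In these bulk samples, fewer cells of a type and less RNA per cell cannot be told apart.

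Fgf18 and Scx, taken as markers of the fibrous programme, were higher with TGF-β1. Fgfr3 and Slc26a7, taken as markers of the cartilage programme, were higher with BMP4. These markers were chosen with earlier results of these data known, so their separation is a description and tests neither programme. Fgf18, which codes for a secreted fibroblast growth factor, had log2 values of 2.01, 2.54 and 2.13 with TGF-β1, of -2.73, -2.49 and -2.63 with BMP4 and of 0, 0.38 and -0.12 without a factor. The 3 groups did not overlap, and untreated cultures lay between the others. Fgf18 was 28.7-fold higher with TGF-β1 than with BMP4 (a difference of 4.84 ± 0.16 SE on the log2 scale, n = 3 per group, adjusted p = 1.2e-06 in limma), the largest difference among the 18193 genes. Scx, which codes for the tendon transcription factor scleraxis, had 1.89, 2.06 and 1.88 with TGF-β1, -0.83, -1.51 and -1.18 with BMP4 and 0, 0 and -0.20 untreated. Here too the groups were separate, and the difference was 8.68-fold (3.12 ± 0.15, adjusted p = 6.5e-06). A second Scx probe set gave a smaller difference of 1.02.

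Slc26a7, an anion transporter gene, had 2.86, 3.92 and 2.45 with BMP4, -1.47, -1.48 and -1.24 with TGF-β1 and -0.07, 0.87 and 0 untreated. It was 22.3-fold lower with TGF-β1 than with BMP4 (-4.48 ± 0.35, adjusted p = 7.4e-05), the largest difference in this direction. Its other probe set had -0.89 and was not called (adjusted p = 0.058). Fgfr3, the fibroblast growth factor receptor gene of chondrocytes, had 2.21, 2.92 and 1.73 with BMP4, -0.88, -1.12 and -0.99 with TGF-β1 and -0.24, 0.11 and 0 untreated. The BMP4 arrays stood above all others and the TGF-β1 arrays below all others, but the fall of Fgfr3 with TGF-β1 relative to untreated cultures was not called. Fgfr3 was 9.72-fold lower with TGF-β1 (-3.28 ± 0.24, adjusted p = 5.9e-05), with a like difference of -3.26 in its second probe set. All 4 genes were called between the factors in every fit that left out an array or the 3 arrays numbered 2.

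**Figure D1:**
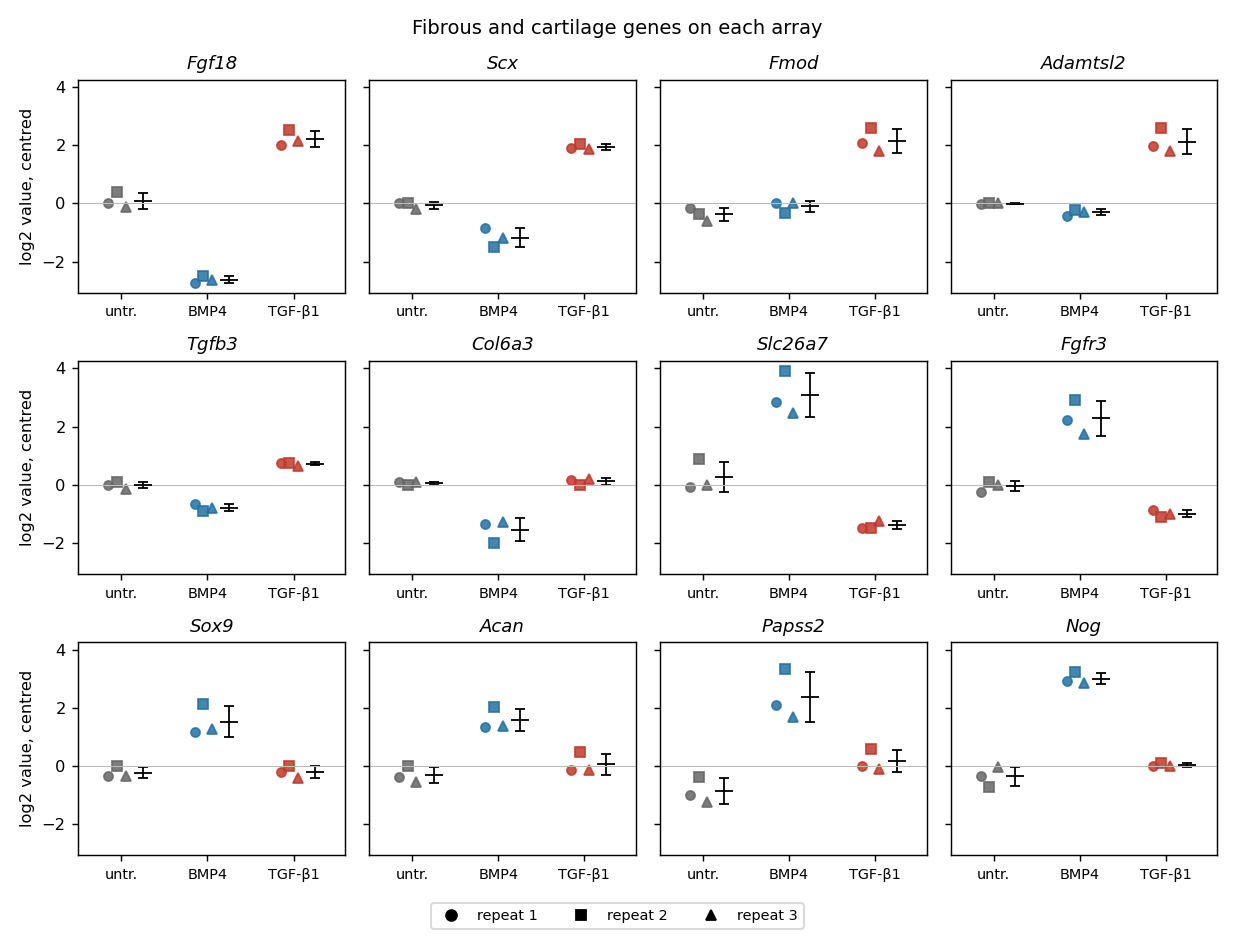
Log2 value (y axis, with 0 at the gene's median of all 9 arrays) of 12 genes in untreated, BMP4 and TGF-β1 cultures, with marker shapes for the repeat and the mean ± SD of 3 arrays beside them. The 3 TGF-β1 arrays lie above the 3 BMP4 arrays for Fgf18, Scx, Fmod, Adamtsl2, Tgfb3 and Col6a3, and below them for Slc26a7, Fgfr3, Sox9, Acan, Papss2 and Nog.

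Smad proteins are the DNA-binding effectors of both factors. Promoter sequences are shown for Fgf18 and Fmod, which were higher with TGF-β1 than with BMP4, and for Fgfr3, which was higher with BMP4. The sequences come from RefSeq (mouse build GRCm38.p6), run 5′ to 3′ on the strand of the gene, and hold 250 bases before and 50 bases after the transcription start. Capitals mark the Smad box CAGAC or its reverse complement in Fgf18 (chr11:33147351-33147650, minus strand) and Fmod (chr1:134037004-134037303, plus strand). In the promoters of the Fgfr3 start sites (chr5:33721474-33721773 and chr5:33722056-33722355, plus strand) they mark GGCGCC, the GC-rich element through which BMP Smads can bind.
Fgf18: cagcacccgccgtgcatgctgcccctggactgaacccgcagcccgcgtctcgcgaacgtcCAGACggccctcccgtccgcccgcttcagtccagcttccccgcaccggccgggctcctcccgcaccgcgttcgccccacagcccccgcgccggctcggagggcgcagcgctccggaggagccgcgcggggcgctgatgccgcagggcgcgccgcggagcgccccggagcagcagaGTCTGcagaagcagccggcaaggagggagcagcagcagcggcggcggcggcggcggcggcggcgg
Fmod: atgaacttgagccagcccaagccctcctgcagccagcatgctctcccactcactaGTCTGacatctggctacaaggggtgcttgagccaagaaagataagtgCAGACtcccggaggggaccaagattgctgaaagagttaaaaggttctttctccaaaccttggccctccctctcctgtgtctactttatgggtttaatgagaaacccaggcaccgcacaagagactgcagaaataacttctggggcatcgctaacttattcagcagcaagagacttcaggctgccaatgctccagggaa
Fgfr3 first start: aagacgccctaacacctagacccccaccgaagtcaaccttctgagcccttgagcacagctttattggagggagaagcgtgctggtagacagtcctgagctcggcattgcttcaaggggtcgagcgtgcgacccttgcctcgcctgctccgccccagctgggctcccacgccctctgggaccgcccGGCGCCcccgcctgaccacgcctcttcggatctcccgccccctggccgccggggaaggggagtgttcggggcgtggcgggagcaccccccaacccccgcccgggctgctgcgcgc
Fgfr3 second start: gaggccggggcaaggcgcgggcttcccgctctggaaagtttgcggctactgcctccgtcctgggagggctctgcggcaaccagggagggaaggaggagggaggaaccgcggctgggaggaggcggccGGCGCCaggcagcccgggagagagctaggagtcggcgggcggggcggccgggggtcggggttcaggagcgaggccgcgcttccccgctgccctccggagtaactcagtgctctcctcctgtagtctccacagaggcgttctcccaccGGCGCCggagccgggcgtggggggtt

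On either strand, CAGAC occurred 2 times in the Fgf18 window and 2 times in the Fmod window, and not in either Fgfr3 window. GGCGCC occurred 1 time and 2 times in the Fgfr3 windows and not in the other windows. The window of Smad6, also higher with BMP4, was read as well, held neither word and is not shown. GC content was 78.7% for Fgf18, 51.0% for Fmod, 69.7% and 73.0% for Fgfr3 and 66.3% for Smad6. Over all measured genes with a promoter in the table, 14452 of 18193, CAGAC was found in 48.9% and GGCGCC in 18.1%. Of the genes called at least 2-fold higher with TGF-β1, 135 of 194 had a promoter, and 55.6% held CAGAC and 23.7% GGCGCC. Of those at least 2-fold lower, 140 of 181 had one, and 42.1% held CAGAC and 26.4% GGCGCC. The AP-1 site TGANTCA was found in 6.33% of all these promoters, in 6.67% of the higher and in 2.86% of the lower group. CAGAC is thus a common word, and GGCGCC was more frequent in both groups than over all measured genes. These shares are a description of 300 bases per gene.

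Over the whole array, 3110 of 45037 probe sets (6.91%) differed between the factors at an adjusted p under 0.05 in limma, and are referred to as called. TGF-β1 was higher in 1536 (3.41%) and lower in 1574 (3.49%) of them, and 562 differed at least 2-fold (294 higher, 268 lower). By gene, 1838 of 18193 (10.1%) were called, 860 higher (4.73%) and 978 lower (5.38%) with TGF-β1, and 194 (1.07%) and 181 (0.995%) of these differed at least 2-fold. The 3 TGF-β1 arrays did not overlap the 3 BMP4 arrays for 5451 genes (30.0%), among them all 1838 called genes. The median difference over all genes was 0.01. In the blocked model, 1358 genes (7.46%) were higher and 1692 (9.3%) lower, and 5252 probe sets were called. Fewer than 3110 probe sets were called when BMP4 replicate 1 (1877), BMP4 replicate 2 (1932), TGF-β1 replicate 3 (1927) or the 3 arrays numbered 2 (1819) were left out.

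Relative to untreated cultures, most differences between the factors came from genes that only one of them had changed beyond the threshold. Both of these comparisons use the same 3 untreated arrays. TGF-β1 changed 462 genes upward (2.54%) and 766 downward (4.21%), together 6.75% of genes. BMP4 changed 628 upward (3.45%) and 820 downward (4.51%), together 7.96%. Of the 860 genes higher with TGF-β1, 197 rose with TGF-β1 and were not called with BMP4, 342 fell with BMP4 and were not called with TGF-β1, and 246 were called with neither. Of the 978 lower genes, 249 fell with TGF-β1 alone, 322 rose with BMP4 alone and 360 were called with neither. A further 62 genes moved the same way with both factors but by different amounts. An absent call does not show that a factor had no effect on a gene.

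**Figure D2:**
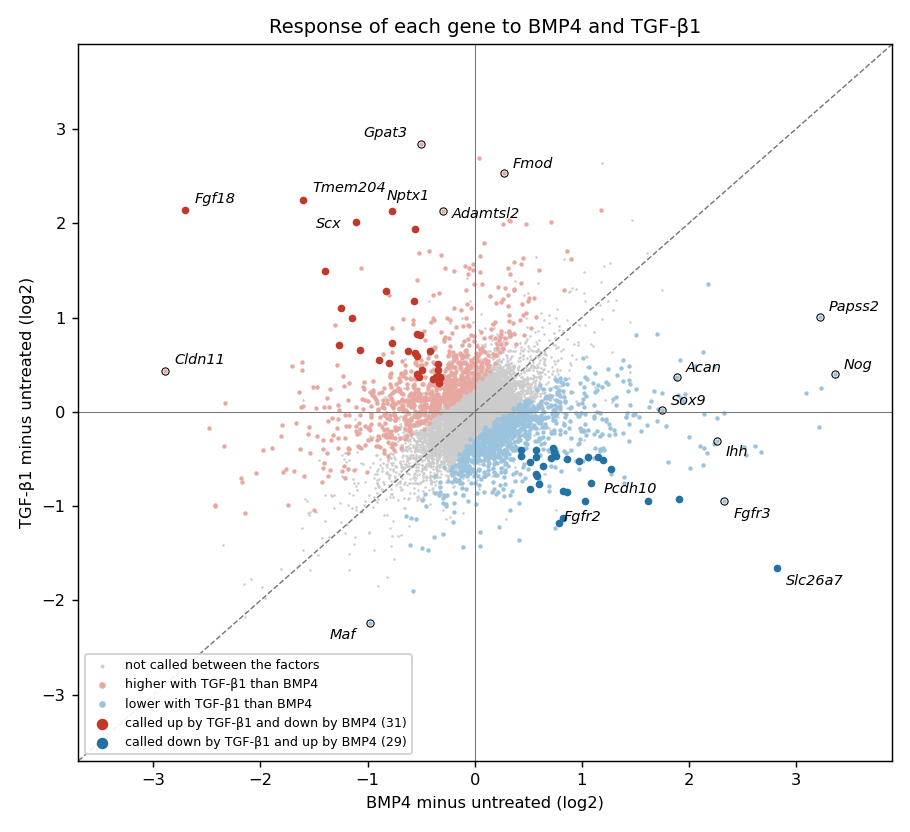
Log2 difference from untreated cultures with TGF-β1 (y axis) against that with BMP4 (x axis) for 18193 genes, coloured by their call between the factors, with named genes circled or in full colour and the dashed line where both responses are equal. Both axes use the same untreated arrays. The 31 genes that rose with TGF-β1 and fell with BMP4 lie at the upper left, with Fgf18 at 2.14 and -2.70, and the 29 opposite ones at the lower right, with Slc26a7 at -1.66 and 2.82.

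The genes with the largest differences apart from the 4 markers came from several functional classes. Tmem204, a membrane protein gene of cell junctions, was 14.5-fold higher with TGF-β1 (3.86 ± 0.27, adjusted p = 4.6e-05). Its values of 2.22, 2.40 and 2.14 with TGF-β1 and -1.09, -2.24 and -1.47 with BMP4 did not overlap. Gpat3, an enzyme of glycerolipid synthesis, was 10.1-fold higher (3.33 ± 0.14), with 2.82, 3.21 and 2.72 against -0.45, -0.30 and -0.51. It rose with TGF-β1 and had a BMP4 value close to that of untreated cultures. Cldn11, a tight junction gene, was 9.95-fold higher (3.31 ± 0.42), but through BMP4: it fell by 2.89 with BMP4 and had a difference of 0.43 with TGF-β1 (adjusted p = 0.64). Nptx1 (7.44-fold), Pcp4 (7.43-fold), Ddah1 (6.25-fold), Zfp185 (5.63-fold), Adamtsl2 (5.36-fold) and Pamr1 (5.35-fold) followed. Ddah1, whose enzyme degrades methylated arginine, rose by 2.69 with TGF-β1 and had 0.04 with BMP4, whereas Pamr1 fell by 2.33 with BMP4 and had 0.09 with TGF-β1. Prg4, the gene for lubricin, was 5.99-fold higher (2.58 ± 0.54, adjusted p = 0.019, and 0.00088 with the block). It was not called without BMP4 replicate 1 (0.059), BMP4 replicate 3 (0.063) or TGF-β1 replicate 2 (0.068).

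On the other side, 10 genes besides Slc26a7 and Fgfr3 formed the largest differences. They were Insyn2b (10.4-fold lower with TGF-β1), Ttr, the gene for transthyretin (8.53-fold), Grik3, a glutamate receptor gene (7.93-fold), Dlx2, a homeobox gene (7.90-fold), Gata3, a zinc finger transcription factor gene (7.86-fold), Nog (7.82-fold), S1pr5, a receptor gene for sphingosine phosphate (7.41-fold), Wwp2 (7.35-fold), Pcdh10, a protocadherin gene (7.14-fold), and the growth factor gene Tgfa (6.43-fold). All 10 rose with BMP4, by 1.91 to 3.36 on the log2 scale, and of these only Pcdh10 was also called down with TGF-β1. Nog, which codes for the BMP antagonist noggin, had 2.92, 3.23 and 2.86 with BMP4 and 0, 0.11 and 0 with TGF-β1. The groups were far apart and its spread within a group was small (-2.97 ± 0.16, adjusted p = 1.1e-05).

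Genes that moved in opposite directions relative to untreated cultures numbered 60 (0.33% of 18193). TGF-β1 raised and BMP4 lowered 31 (0.17%), and TGF-β1 lowered and BMP4 raised 29 (0.159%). All 60 were also called between the factors, where their differences were at least 0.64 in size. By comparison 354 genes were called in the same direction by both factors. Of the 60, 40 had several probe sets, and for 34 of these at least 2 probe sets were called in the same direction between the factors. In the blocked model all 60 kept their opposite calls and the counts became 82 and 73. Only 5 and 1 moved at least 2-fold both ways.

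The genes that rose with TGF-β1 and fell with BMP4 included the secreted factor genes Fgf18 and Tgfb3. Fgf18 rose by 2.14 with TGF-β1 and fell by 2.70 with BMP4, the widest span of the 60. Tgfb3, the gene for a TGF-β ligand of the forming disc, had 0.74, 0.75 and 0.66 with TGF-β1, -0.66, -0.89 and -0.80 with BMP4 and 0, 0.10 and -0.13 untreated. It rose by 0.73 (adjusted p = 0.002) and fell by 0.77 (adjusted p = 0.00099), nearly the same step each way, and the arrays of the 3 groups were separate. Fgfr1, the receptor gene of early mesenchyme, rose by 0.64 and fell by 0.42. Ltbp1, whose protein holds latent TGF-β in the matrix, rose by 0.44 and fell by 0.49. The calls of these receptor and matrix genes were less secure: the BMP4 call of Fgfr1 was lost without any 1 of the 3 BMP4 or 3 untreated arrays (adjusted p from 0.06 to 0.097), and Ltbp1 kept its opposite calls in 1 of 9 fits that left out an array.

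Regulators of transcription in this group were Scx, which rose by 2.01 and fell by 1.11, Bhlhe40, a basic helix-loop-helix repressor gene (1.28 and -0.83), Foxp4 (0.66 and -1.07) and Glis2 (0.52 and -0.80). Bhlhe40 had 1.25, 1.42 and 1.13 with TGF-β1, -0.79, -0.62 and -1.11 with BMP4 and 0, 0.13 and -0.16 untreated, without overlap. Matrix and adhesion genes were Col5a1, which codes for a chain of fibrillar collagen V (0.35 and -0.39), the tenascin gene Tnn (0.37 and -0.32) and the integrin gene Itga9 (0.36 and -0.32), all with small steps. Genes tied to the cytoskeleton and its organisation included Zfp185 (1.94 and -0.56), Hook1 (1.10 and -1.25), Rflnb, a filamin regulator gene (0.71 and -1.27), and the small GTPase gene Rhoj (0.83 and -0.54). Tmem204 (2.25 and -1.60), Nptx1 (2.13 and -0.77), Pcp4 (1.49 and -1.40), Hsd11b2, which inactivates glucocorticoids (1.17 and -0.57), and Tmem178 (0.99 and -1.15) were others.

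Several receptor genes were among the 29 that fell with TGF-β1 and rose with BMP4. Fgfr2, a fibroblast growth factor receptor gene of condensing mesenchyme, had 0.95, 1.30 and 0.91 with BMP4, -0.86, -1.03 and -0.91 with TGF-β1 and -0.05, 0.11 and 0 untreated. The groups were separate and the steps were alike, a fall of 0.95 and a rise of 1.03. Kit, the stem cell factor receptor gene (-0.52 with TGF-β1 and 0.97 with BMP4), Ptger4, a prostaglandin receptor gene (-0.48 and 1.15), the glutamate receptor gene Grin3a (-0.95 and 1.62) and Nr3c1, the glucocorticoid receptor gene (-0.75 and 1.09), moved the same way. Of 9 fits that left out an array, Ptger4 kept both calls in 2, Grin3a in 3 and Nr3c1 in 1. Gdf10, which codes for a ligand of the TGF-β family also known as Bmp3b, fell by 1.13 and rose by 0.82. Pcdh10 (-0.92 and 1.91), Asb4 (-1.18 and 0.79), the secretin gene Sct (-0.51 and 1.20), Stard8 (-0.85 and 0.86), the xylose phosphatase gene Pxylp1 (-0.61 and 1.27) and the transcription factor genes Elf1 (-0.77 and 0.60) and Cebpa (-0.40 and 0.57) were others. Slc26a7 spanned the widest range of the 29, but its fall with TGF-β1 (-1.66, adjusted p = 0.026) was not called without TGF-β1 replicate 1 (0.091), 2 (0.077) or 3 (0.076), or untreated replicate 1 (0.051) or 2 (0.078), nor for the mean of its probe sets (-0.77, adjusted p = 0.13).

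In all, 18 of the 60 kept both calls in each of the 9 fits that left out an array, 13 that rose with TGF-β1 and 5 that rose with BMP4. The 13 were Fgf18, Tmem204, Scx, Nptx1, Pcp4, Zfp185, Hook1, Bhlhe40, Rflnb, Hsd11b2, Tgfb3, Lrig3 and Samd4, and the 5 were Fgfr2, Asb4, Sct, Stard8 and Kit. Zfp185, Samd4 and Kit were not called both ways without the 3 arrays numbered 2. The rest of the 60 lost a call in at least 1 of the 9 fits, and some in most of them. Tnn and Elf1 kept both calls in 0 of the 9, Col5a1 and Itga9 in 1, and Rhoj, Glis2 and Pxylp1 in 2. Foxp4, Tmem178, Cebpa and Pcdh10 kept them in 5 and Gdf10 in 7. The count of 31 fell to 16 without TGF-β1 replicate 1, 16 without replicate 3, and 16, 17 and 15 without untreated replicates 1, 2 and 3. The count of 29 fell to 14 without BMP4 replicate 1, to 11, 12 and 10 without TGF-β1 replicates 1, 2 and 3, and to 6 and 11 without untreated replicates 1 and 2. Without the 3 arrays numbered 2 the counts were 17 and 12.

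**Figure D3:**
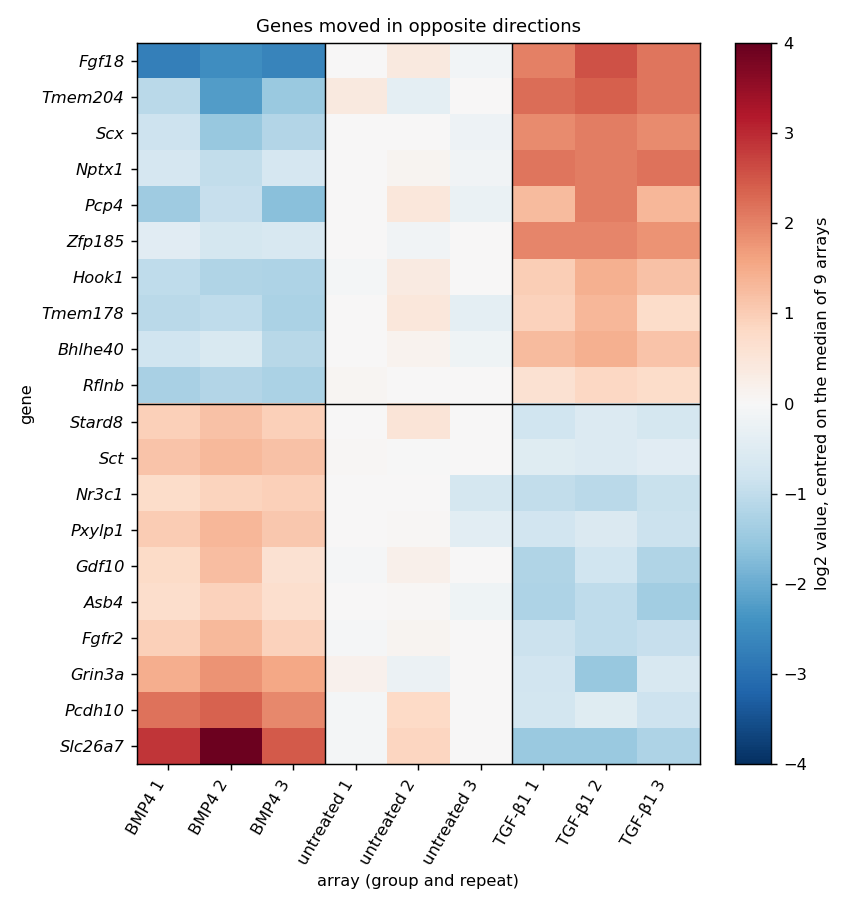
Log2 values (colour, with 0 at the gene's median of all 9 arrays) on the BMP4, untreated and TGF-β1 arrays for the 10 genes with the largest difference between the factors in each direction among those that moved in opposite directions. Fgf18 runs from -2.73 on BMP4 array 1 to 2.54 on TGF-β1 array 2, and Slc26a7 from 3.92 on BMP4 array 2 to -1.48 on TGF-β1 array 2.

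Most of the known target genes that were called differed in the direction of their pathway. The gene lists were chosen with earlier results of these data known, so their shares are a description and test neither pathway. Shares of called list members stand beside 4.73% of all genes called higher and 5.38% called lower. Counts with the block stand beside 7.46% higher and 9.3% lower. Calls against untreated cultures stand beside 2.54% up and 4.21% down with TGF-β1, and 3.45% up and 4.51% down with BMP4. Of 21 measured BMP target and feedback genes, 17 were lower with TGF-β1 than with BMP4 and 0 higher (81.0%, against 5.38% of all genes), and their median difference was -1.21. Limma called 0 as higher, 0 of the 21 had a difference above 0, and the count of lower members was 20 with the block. Smad6, an inhibitory Smad gene, had 1.69, 1.59 and 1.78 with BMP4 and -0.19, -0.40 and -0.16 with TGF-β1, without overlap (-1.94 ± 0.13, adjusted p = 3.7e-05). Its promoter held neither CAGAC nor GGCGCC in the window used above. Besides Nog and Gata3, Id4 (-1.94), Bambi, a decoy receptor gene (-1.83), the homeobox genes Msx2 (-1.72) and Msx1 (-1.59), and Hey1 (-1.44) were lower. Id1, often used as a readout of BMP signals, differed less (-0.79 ± 0.14, adjusted p = 0.0082).

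Of 22 TGF-β target and feedback genes, 9 were higher with TGF-β1 (40.9%, against 4.73% of all genes) and 3 lower (13.6%, against 5.38%). The other 10 were not called, and the median difference was 0.61. With the block, 16 were higher and 3 lower. Bhlhe40 (2.11), Ldlrad4, an inhibitor of the pathway (1.96), Lox, whose enzyme crosslinks collagen and elastin (1.60), and Pmepa1, a feedback inhibitor (1.51), led the higher members. Lox had 1.11, 1.87 and 0.98 with TGF-β1 and -0.21, 0 and -0.63 with BMP4, and these did not overlap. The 3 lower members were Snai2 (-1.98 ± 0.21, adjusted p = 0.00042), Snai1 (-1.60) and Smad7 (-0.71). Snai1 and Snai2 code for repressors of epithelial genes, and Smad7 for an inhibitor of both pathways. Snai2 had -0.97, -1.87 and -1.12 with TGF-β1, 0.70, 0.46 and 0.81 with BMP4 and 0.02, -0.30 and 0 untreated, so that TGF-β1 stood below both other groups. Smad7 rose with both factors, by 0.41 with TGF-β1 (adjusted p = 0.048) and 1.12 with BMP4.

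The cartilage transcription factors Sox9, Sox5 and Sox6 separated the factors through BMP4. Sox9 had 1.18, 2.13 and 1.26 with BMP4, -0.20, 0.01 and -0.42 with TGF-β1 and -0.33, 0 and -0.35 untreated. TGF-β1 and untreated arrays overlapped, and all BMP4 arrays stood above them. The difference between the factors was 3.31-fold (-1.73 ± 0.23, adjusted p = 0.0016). Sox6 (-1.5 ± 0.25) and Sox5 (-1.34 ± 0.17), its partners in the activation of cartilage genes, were also raised by BMP4 and not called with TGF-β1, and Wwp2, a ubiquitin ligase gene of cartilage, was 7.35-fold lower with TGF-β1, with 5 of its 6 probe sets called. The list of 18 cartilage transcription factors and their partners holds Wwp2. Of these 18, 5 were lower with TGF-β1 (27.8%) and 0 higher, with a median of -0.13. The fifth was Maf (-1.26 ± 0.21), which followed another course: 0.75, 1.60 and 0.60 untreated, 0.01, 0 and 0 with BMP4 and -1.21, -1.21 and -1.34 with TGF-β1, falling with both factors and further with TGF-β1. With the block 1 gene, Runx1 (0.39), was higher, and 1 member was called higher without untreated replicate 1.

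Cartilage matrix genes were less uniform. Of 25 measured, 3 were lower with TGF-β1 and 1 was higher, Prg4, with a median of -0.41. Without BMP4 replicate 2, 2 were called higher. Acan, the aggrecan gene, had 1.35, 2.03 and 1.38 with BMP4, -0.14, 0.48 and -0.15 with TGF-β1 and -0.36, 0 and -0.56 untreated, and BMP4 stood apart (-1.52 ± 0.23, adjusted p = 0.0031). The difference was nearly the same in the 3 repeats, -1.49, -1.55 and -1.53. Otor (-1.32), which fell by 1.90 with TGF-β1, and Epyc, the epiphycan gene (-1.34), were the others. Epyc was not called without TGF-β1 replicate 3 (adjusted p = 0.061), and had 0.00023 with the block on all arrays.

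In the blocked model, 13 of the 25 were lower and 3 higher, and without the 3 arrays numbered 2, 9 were lower. Col2a1, the gene for the main cartilage collagen, had 0, 0.58 and 0.09 with BMP4 and -0.39, 0.18 and -0.32 with TGF-β1. The groups overlapped and the gene was not called (-0.40 ± 0.19, adjusted p = 0.28), although the difference within the repeats was -0.39, -0.40 and -0.41 and the block gave an adjusted p of 0.0097. Other members were likewise called lower with the block and not in the model of all 9 arrays without it. They were Hapln1, which links aggrecan to hyaluronan (-1.80), Cnmd, the chondromodulin gene (-1.43), Matn4 (-1.34), Col11a2 (-1.32) and Col9a3 (-1.09). Chad, the chondroadherin gene, went the other way, with 1.35, 2.67 and 1.15 with TGF-β1, -0.12, 0.96 and 0 with BMP4 and -0.86, -0.66 and -1.23 untreated (1.45 ± 0.39, adjusted p = 0.055, and 0.002 with the block).

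Sulfate gives cartilage proteoglycans their charge. Of 22 genes of sulfation and glycosaminoglycan synthesis, 7 were lower with TGF-β1 (31.8%) and 2 higher (9.1%), with a median of -0.32. Among the 7 was Slc26a7 (-4.48), the marker chosen with earlier results of these data known. With the block, 10 were lower and 2 higher. Papss2, which makes the sulfate donor, had 2.10, 3.34 and 1.67 with BMP4, 0, 0.59 and -0.11 with TGF-β1 and -0.98, -0.36 and -1.22 untreated. All BMP4 arrays stood above the others, and the difference was 4.62-fold (-2.21 ± 0.39, adjusted p = 0.0074), with all 4 probe sets called. Slc26a2, the sulfate transporter gene (-1.55 ± 0.18), Chst11, a chondroitin sulfotransferase gene (-1.49 ± 0.18), and Ugdh, which makes the sugar acid of chondroitin (-1.16), were also lower. Chst15, another sulfotransferase gene, was higher (0.78 ± 0.10), as was Galnt3 (0.73 ± 0.11).

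Ihh, the ligand gene that drives hedgehog signalling in cartilage, had 2.09, 2.48 and 2.29 with BMP4, 0, -0.24 and -0.62 with TGF-β1 and -0.08, -0.15 and 0.30 untreated (-2.58 ± 0.17, 5.96-fold, adjusted p = 4e-05). The receptor gene Ptch1 (-1.35 ± 0.18) and the transcription factor gene Gli1 (-1.58 ± 0.17), both also targets of the pathway, followed Ihh. Of 15 genes of the pathway, 3 were lower and 2 higher with TGF-β1, the latter being Gli2 (0.76) and the co-receptor gene Gas1 (0.54), which had fallen with BMP4. Among 12 genes of hypertrophy and bone, 2 were lower (16.7%, and 4 with the block), Alpl (-1.03) and Sp7 (-0.79). Only 1 was higher (8.3%, and 2 with the block), Phex (1.08). These counts were unstable: none of the lower calls remained without BMP4 replicate 1, 1 remained without BMP4 replicates 2 or 3 or TGF-β1 replicates 1 or 3, and Phex was lost without any BMP4 array (adjusted p from 0.051 to 0.071) or TGF-β1 replicates 2 (0.079) and 3 (0.058).

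On the fibrous side, of 40 tendon and fibrous matrix genes, 16 were higher with TGF-β1 and 1 lower, and their median difference was 0.43. Fmod, the gene of fibromodulin, a proteoglycan that binds collagen fibrils, had 2.08, 2.6 and 1.79 with TGF-β1, 0, -0.32 and 0.02 with BMP4 and -0.14, -0.38 and -0.60 untreated. TGF-β1 stood above both other groups in all 3 arrays, and the difference was 4.77-fold (2.26 ± 0.20, adjusted p = 0.00014), with all 6 probe sets called. Cilp, a cartilage intermediate layer protein gene found in fibrous tissues, was 4.39-fold higher (2.13 ± 0.17) and rose with TGF-β1.

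Other fibrous matrix genes separated because BMP4 lowered them. Thbs2, a thrombospondin gene, had 0.39, 0.82 and 0.35 with TGF-β1, -1.56, -1.37 and -1.66 with BMP4 and -0.01, 0.27 and 0 untreated (2.05 ± 0.14, adjusted p = 4e-05). BMP4 stood far below the other groups, which lay close to each other. Col6a3, a collagen VI chain gene, was of the same kind, with 0.16, -0.02 and 0.21 against -1.35, -2 and -1.27 and untreated values of 0.08, 0 and 0.09 (1.66 ± 0.17, adjusted p = 0.00033). The genes for the other chains, Col6a1 (-0.11) and Col6a2 (-0.01), were not called. Eln, the elastin gene (1.55), Fbln5, which organises elastic fibres (0.94), the collagen I chain gene Col1a2 (0.85), Dcn, the decorin gene (0.72), and Bgn, the biglycan gene (0.53), were among the remaining higher members. Tnmd, the tenomodulin gene of mature tendon (0.39), was not called. Thbs3 (-0.48) was the lower member, and its call was lost without BMP4 replicate 1 (adjusted p = 0.051), while 2 members were lower without BMP4 replicate 2. In all, 10 of the 40 rose and 2 fell with TGF-β1 relative to untreated cultures, and 1 rose and 9 fell with BMP4. Of all genes, 2.54% rose and 4.21% fell with TGF-β1, and 3.45% rose and 4.51% fell with BMP4.

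Of 20 transcription factors of tendon and fibrous tissue, 4 were higher with TGF-β1 and 4 lower, and 8 were higher with the block. Mkx, the tendon homeobox gene Mohawk, had 1.14, 1.49 and 0.99 with TGF-β1, 0.06, -0.36 and -0.19 with BMP4 and 0, -0.08 and -0.18 untreated (1.37 ± 0.14, adjusted p = 0.00036). Only TGF-β1 stood apart, unlike Scx, for which all 3 groups did. Etv4 (0.60) and Eya2 (0.36) were the others, with small differences, and without TGF-β1 replicate 3 only 2 members were called higher (Etv4 had adjusted p = 0.057 and Eya2 0.13). Eya2 was also lost without any BMP4 array (0.057 to 0.11), TGF-β1 replicate 1 (0.11), and untreated replicates 1 (0.058) and 3 (0.051). The lower members were Klf4 (-1.14), Klf2 (-0.93), Prrx2 (-0.63) and Prrx1 (-0.51). Klf4 and Klf2 rose with BMP4. Prrx1 fell with TGF-β1, and lost its call between the factors without BMP4 replicate 2 (0.065) or TGF-β1 replicate 1 (0.068) or 3 (0.066).

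Of 32 genes of matrix proteases and inhibitors, 10 were higher (31.2%) and 1 lower (3.1%, against 5.38% of all genes), with a median of 0.10. Without TGF-β1 replicate 1 or untreated replicate 2, 2 were lower. Adamtsl2, which codes for a fibrillin-binding glycoprotein, had 1.96, 2.61 and 1.79 with TGF-β1, -0.42, -0.22 and -0.28 with BMP4 and -0.02, 0 and 0 untreated (2.42 ± 0.17, adjusted p = 5.5e-05). TGF-β1 stood alone above the other groups. The serine protease genes Htra3 (1.56) and Htra1 (1.17), Adamts16 (1.27), Adamts6 (1.23), Timp2 (1.04) and Mmp2 (0.79) were also higher. Timp4, an inhibitor of metalloproteases, was the lower member (-2.15 ± 0.18, 4.45-fold) and rose by 2.14 with BMP4. Among 21 genes of collagen crosslinking and processing, 3 were higher (14.3%), Lox, Loxl4 (0.68) and Loxl1 (0.68). Pcolce2, an enhancer of procollagen cleavage, was lower (-1.21) as the only such member (4.8%, near the share of all genes).

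**Figure D4:**
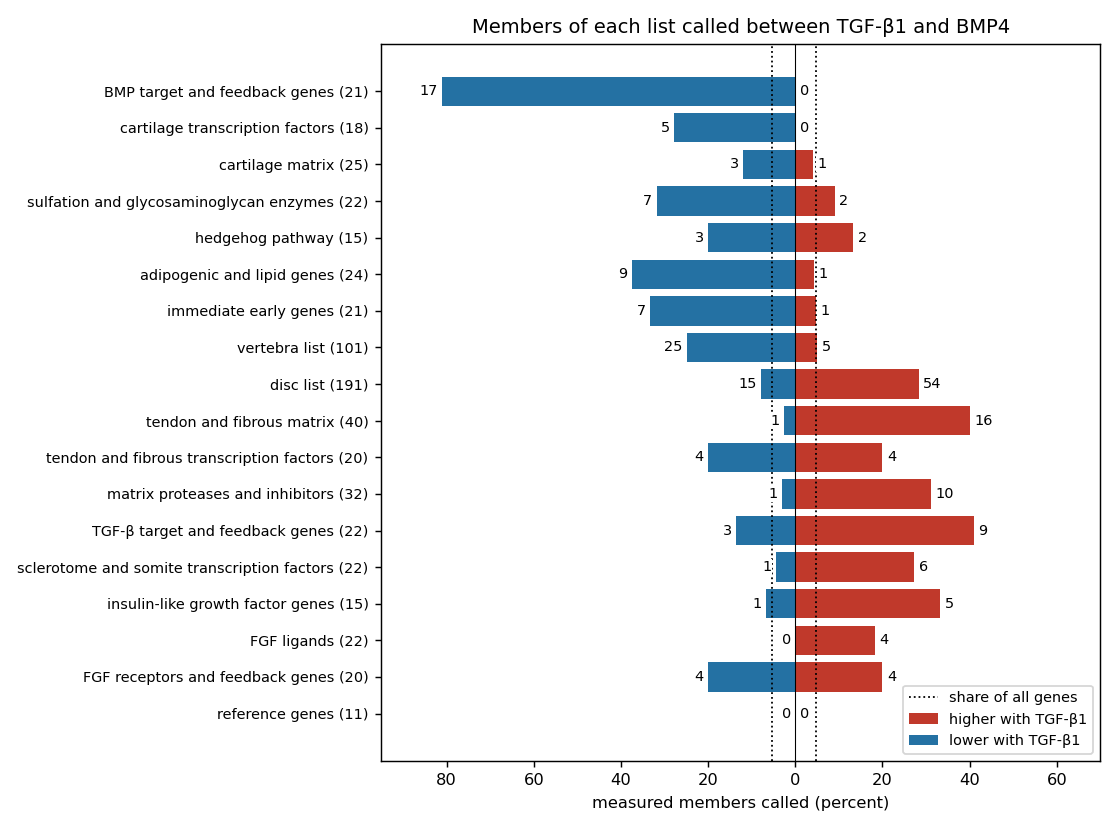
Percent of the measured members of 18 gene lists (number in brackets) called higher (red, to the right) or lower (blue, to the left) with TGF-β1 than with BMP4, with the counts beside the bars and dotted lines at the share of all genes, 4.73% and 5.38%. BMP target genes reach 81.0% lower, and genes of matrix proteases and inhibitors 31.2% higher.

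Of 22 ligand genes of the fibroblast growth factor pathway, 4 were higher with TGF-β1 (18.2%, and 6 with the block) and 0 lower. The 4 were Fgf18, Fgf21 (1.73 ± 0.12), Fgf5 (0.83 ± 0.13) and Fgf8 (0.41 ± 0.10). Limma called 0 ligands as lower (1 with the block, Fgf15 at -0.52, and 1 in fits without BMP4 replicate 2 or untreated replicate 2). Fgf8 was not called without any 1 of the BMP4 arrays (adjusted p 0.096, 0.12 and 0.11), TGF-β1 replicates 1 (0.11) and 3 (0.15), or untreated replicates 1 (0.054) and 2 (0.051). Fgf21 rose by 1.99 with TGF-β1, and Fgf5 fell by 0.99 with BMP4. The receptor genes parted in both directions, with Fgfr1 higher (1.07 ± 0.10, adjusted p = 0.00019) and Fgfr2 (-1.99 ± 0.11), Fgfr3, Fgfr4 (-1.28 ± 0.19) and the decoy receptor gene Fgfrl1 (-0.67 ± 0.07) lower. Il17rd, a feedback inhibitor of the pathway also known as Sef, had 0.45, 0.58 and 0.42 with TGF-β1, -1.53, -1.99 and -1.62 with BMP4 and 0, 0.20 and -0.22 untreated (2.20 ± 0.14, adjusted p = 2.3e-05). BMP4 lay below both other groups. Of the 20 receptor and feedback genes, 4 were higher and 4 lower, 10 and 4 with the block, and 2 were higher without TGF-β1 replicate 3.

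Genes of the TGF-β family itself differed as well. Of 18 ligand genes, 4 were higher with TGF-β1 (22.2%) and 2 lower (11.1%). Bmp4 itself had 0.29, 0.05 and 0.27 with TGF-β1, -1.22, -2.41 and -1.08 with BMP4 and 0.01, -0.19 and 0 untreated, and was 3.42-fold higher with TGF-β1 (1.77 ± 0.28, adjusted p = 0.0042). Its transcript was thus lowest in the cultures that had received the protein. Tgfb3 (1.5 ± 0.09), Inhbb (0.46) and Gdf5, a gene of the forming joint (0.90 ± 0.18), were also higher. The call of Gdf5 was lost without BMP4 replicate 2 (0.067) or TGF-β1 replicate 2 (0.064). Gdf10 (-1.94 ± 0.17) and Tgfb2 (-0.71 ± 0.16) were lower, and Tgfb2 lost its call without BMP4 replicate 1 (0.08), 2 (0.064) or 3 (0.086).

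Of 21 receptor and Smad genes, 3 were higher (14.3%) and 5 lower (23.8%) with TGF-β1. Tgfbr2, the type II receptor gene of the TGF-β pathway, had 0.38, 0.68 and 0.26 with TGF-β1, -1.16, -1.16 and -1.13 with BMP4 and 0, 0.61 and 0 untreated (1.59 ± 0.16, adjusted p = 0.00036). BMP4 lowered it, and TGF-β1 and untreated arrays overlapped. Eng, a co-receptor gene (0.78), and Smad3 (0.57) were higher. The call of Smad3 was lost without BMP4 replicate 1 (adjusted p = 0.05) and for the mean of its probe sets (0.22). Bmpr1a (-0.63), Acvrl1 (-0.70), Acvr1b (-0.49), Smad7 and Smad6 were lower.

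Of 19 secreted antagonists and latent binding proteins, 6 were higher (31.6%) and 5 lower (26.3%) with TGF-β1, and 8 and 7 with the block. The activin antagonist genes Fst (0.70 ± 0.10) and Fstl3 (0.67 ± 0.10) and the binding protein gene Ltbp1 (0.93 ± 0.10) were higher. Of the BMP antagonist genes, Nbl1 was higher (0.64 ± 0.11, adjusted p = 0.0053), and Nog, Chrdl2 (-2.51 ± 0.14), Sost, the sclerostin gene (-1.78 ± 0.29), Bmper (-1.21 ± 0.17) and Sostdc1 (-1.02) were lower. Sost had 2.18, 0.84 and 1.93 with BMP4 and -0.15, -0.30 and 0.08 with TGF-β1, apart in all arrays although BMP4 replicate 2 was nearer to them.

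Lists of genes from the tissues themselves were set against the comparison. They come from the study's microdissected embryos of a later stage and from other arrays, a disc list of genes with more signal in disc than in vertebra and a vertebra list of the reverse. Of 191 measured disc genes, 54 were higher with TGF-β1 than with BMP4 (28.3%, against 4.73% of all genes) and 15 lower (7.9%, against 5.38%), with a median of 0.29. With the block, 77 were higher and 19 lower, the 19 near the 9.3% of all genes called lower in that model. Of 101 measured vertebra genes, 25 were lower (24.8%) and 5 higher (5.0%, near the share of all genes), with a median of -0.16. With the block, 33 were lower and 8 higher, the 8 near the 7.46% of all genes called higher in that model. Disc genes with the largest differences were Fgf18, Gpat3, Adamtsl2, Pamr1, Fmod and Coro2b, a coronin gene (2.21 ± 0.29), and the largest opposite ones Ntng1 (-1.68), Lratd1 (-1.62), the Wnt inhibitor genes Wif1 (-1.59) and Notum (-1.48), Thsd7a (-1.55) and Fosl2 (-1.51). Relative to untreated cultures, 25 disc genes rose and 12 fell with TGF-β1, and 17 rose and 41 fell with BMP4, where 2.54% and 4.21% of all genes were called up and down with TGF-β1 and 3.45% and 4.51% with BMP4.

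Vertebra genes that were lower with TGF-β1 included BC006965 (-2.33), Asb4 (-1.97), Gdf10 (-1.94), Bambi (-1.83), Cmtm5 (-1.56) and Ldb2 (-1.45). Of the vertebra list, 1 rose and 14 fell with TGF-β1, and 11 rose and 7 fell with BMP4. The count of 25 was 16 without TGF-β1 replicate 1 and 14 without TGF-β1 replicate 3. The count of 5 higher members was 3 without BMP4 replicate 1 and 2 without TGF-β1 replicates 1 or 2. BC006965 and Cmtm5 were not called without TGF-β1 replicate 1 (adjusted p 0.063 and 0.067), 2 (0.062 and 0.061) or 3 (0.073 and 0.051).

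Of 22 transcription factors that mark the sclerotome and somite, 6 were higher with TGF-β1 (27.3%) and 1 lower (4.5%), Foxc2 (-0.46). With the block, 10 were higher and 2 lower, the 2 near the 9.3% of all genes called lower in that model. The median of the list was 0.24, and 8 members fell with BMP4 while 1 fell and 1 rose with TGF-β1. Of all genes, 4.51% fell with BMP4, and 4.21% fell and 2.54% rose with TGF-β1. Foxc2 was not called without any BMP4 array (adjusted p from 0.093 to 0.11), TGF-β1 replicates 1 (0.12) and 3 (0.14) or untreated replicate 1 (0.053). Meox1, a homeobox gene of the somite, had 0.49, 0.64 and 0.58 with TGF-β1, -1.31, -1.85 and -1.55 with BMP4 and -0.09, 0.20 and 0 untreated (2.14 ± 0.13, adjusted p = 2.4e-05). All TGF-β1 arrays stood above the untreated arrays, though this step was not called (0.53, adjusted p = 0.054). Tcf15, the paraxis gene (1.35 ± 0.16), Uncx (0.94 ± 0.14) and Twist1 (0.70 ± 0.09) were higher too. Pax1, which marks ventral sclerotome, had -0.10, 0.48 and 0 with TGF-β1, -0.72, -0.26 and -0.60 with BMP4 and 0.36, 1.26 and 0.30 untreated, and was not called (0.65 ± 0.25, adjusted p = 0.17, and 0.0068 with the block).

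Markers of cells that a dissection could carry along were examined in 7 lists of 94 genes (muscle, neuron, neural crest and glia, notochord and epithelium, endothelium, erythroid and macrophage). Of these, 4 were higher and 7 lower with TGF-β1 (4.73% and 5.38% of all genes were), and 7 and 17 with the block (7.46% and 9.3% of all genes). Of 9 erythroid genes limma called 0 (0 at an unadjusted p under 0.05 and 0 with the block), and the mean of a list differed by at most 0.71 between any BMP4 and any TGF-β1 array. Neural crest and glia markers held 3 lower genes of 10, Fabp7 (-1.56 ± 0.11), S100b (-1.53) and Erbb3 (-0.40), with list means of 0.28, 0.22 and 0.18 on the BMP4 arrays and -0.16, -0.39 and -0.06 on the TGF-β1 arrays. S100b was not called without any BMP4 array (adjusted p from 0.054 to 0.1), TGF-β1 replicates 1 and 2 (both 0.14) or untreated replicates 1 (0.062) and 3 (0.061), and Erbb3 not without any BMP4 array (0.095 to 0.11), TGF-β1 replicates 2 and 3 (both 0.11) or untreated replicates 1 (0.059) and 3 (0.051). Sox10, their defining marker, had a difference of 0.12 and was not called. Notochord and epithelium markers had means of 0.10, 0.32 and 0.04 with TGF-β1 and -0.12, -0.12 and -0.05 with BMP4, with Krt18 (1.79) and Cldn7 (0.81) called and Shh (-0.02) and Krt8 (-0.01) not. Cldn7 was lost without BMP4 replicates 1 (0.084) and 2 (0.088) or TGF-β1 replicate 3 (0.051). Their part in the differences above was not tested. None of 11 reference genes was called by limma (0 at an adjusted p under 0.05, 2 at an unadjusted p under 0.05, and 0 with the block). Among 24 cell cycle genes 1 was lower (4.2%, near the share of all genes), and 4 with the block and 3 without untreated replicate 3. Their difference was below 0 in 22, with a median of -0.13. The lower gene was Mcm4 (-0.63), a call lost without any BMP4 array (adjusted p from 0.053 to 0.072) or TGF-β1 replicates 2 (0.07) and 3 (0.081).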

How the data were processed

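The submitters hybridised amplified RNA of each culture (50 ng of total RNA at the start) to a whole-genome Affymetrix mouse array. The authors deposited 1 table of log2 values made with robust multi-array averaging (RMA), and each probe set in it is centred on its median over the 9 arrays. Centring removed the expression levels, so no filter on dim probe sets was possible and all 45037 non-control probe sets were kept. A linear model with the 3 groups was fitted to the 9 arrays with limma 3.58.1 in R 4.3.3, without a block, and p-values were adjusted by Benjamini-Hochberg over the 45037 probe sets (called: adjusted p under 0.05). Of the probe sets, 34945 had 1 gene symbol, 932 several and 9160 none in the platform annotation, and each of 18193 genes was read from the probe set that varied most over the 9 arrays. The fit found changed probe sets in simulated data before it was used on these values. The simulated noise was independent between arrays, without a replicate effect, so it cannot show how pairing acts on the calls.

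The genes and lists were chosen with earlier results of these data known. Of the called genes without overlap of arrays, the 12 largest differences in each direction were named, with the 10 largest of the genes that moved in opposite directions, up to 4 members of a list each way (6 for the disc and vertebra lists) and a preset group of markers whatever their test. Other genes in the text were chosen after their values were seen. Alternatives were the replicate number as a block, the 6 arrays of the 2 factors alone, quantile normalization, centring on array medians, robust variances, a variance filter, the mean of a gene's probe sets, the methods' t-test, and the omission of each array and of the arrays numbered 2. Same-numbered arrays deviated together for TGF-β1 and BMP4 and for TGF-β1 and untreated cultures (correlations of 0.137, 0.494 and 0.277), but not in every repeat for BMP4 and untreated cultures (-0.049, 0.502 and 0.239). The numbers were taken to mark the 3 separate set-ups. The 64 control probe sets were kept out of the 45037 and fitted apart, where 1 had an adjusted p under 0.05 and the largest difference was 0.618.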

Additional observations from a re-analysis of the deposited data

How the results depend on the processing

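Numbers of called probe sets depended on how the replicates were treated. With the replicate number as a block, 5252 probe sets were called (2500 higher and 2752 lower with TGF-β1), 82 and 73 genes moved in opposite directions (TGF-β1 up, BMP4 up), and 16 TGF-β target genes were higher and 13 cartilage matrix genes lower. In the 6 arrays alone with the block, an alternative chosen after seeing the data, 5741 were called (2830 higher, 2911 lower), with 16 TGF-β target genes and 83 disc genes higher and 13 cartilage matrix and 11 sulfation genes lower. The methods' t-test gave 543 at the threshold of the methods, which joins an unadjusted p with a 2-fold difference, 6191 at that p alone (2854 higher, 3337 lower) and 11 after Benjamini-Hochberg (7 higher, 4 lower, 7 of them at least 2-fold). Without the 3 arrays numbered 2, 1819 were called (1007 higher, 812 lower), 17 and 12 genes moved in opposite directions and 9 cartilage matrix genes were lower. The mean of a gene's probe sets gave 49 opposite genes up with TGF-β1, a 2-fold limit both ways left 5 and 1, and a filter that kept the more variable probe sets gave 5 lower cartilage matrix genes. The cause of these shifts was not tested.

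Leaving out each array in turn gave 1877 to 3330 called probe sets, 1008 to 1647 higher, 861 to 1683 lower and 472 to 604 at least 2-fold. The lowest counts of higher probe sets came without BMP4 replicate 1 (1016) and 2 (1008), and of lower ones without BMP4 replicates 1 (861) and 2 (924) and TGF-β1 replicates 2 (1023) and 3 (900). Opposite genes numbered 15 to 27 and 6 to 21. Called list members ranged from 16 to 18 (BMP targets), 9 to 10 (TGF-β targets), 5 to 5 (cartilage transcription factors), 2 to 3 (cartilage matrix), 6 to 7 (sulfation), 14 to 17 (fibrous matrix), 46 to 61 (disc list) and 14 to 26 (vertebra list). Of 219 named genes, 216 were called, 167 in every fit that left out 1 array and 157 in every fit, and 0 changed direction. The fits that left out arrays had no block, and with the block on all 9 arrays 0 of the 216 calls were lost. Without the 3 arrays numbered 2, 13 genes given as called lost their call: Galnt3 (adjusted p = 0.071), Acvrl1 (0.057), Wnt11 (0.12), Alpl (0.14), Etv4 (0.073), Eya2 (0.076), Prrx1 (0.057), Fgf8 (0.089), Tgfb2 (0.085), Mcm4 (0.19), S100b (0.11), Erbb3 (0.2) and Cldn7 (0.065). Precision was limited by 3 arrays a group, and signal over background could not be assessed in centred values.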

Other observations

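Among 33 Wnt ligands and antagonists, 6 were lower (18.2%) and 4 higher (12.1%) with TGF-β1 than with BMP4. Relative to untreated cultures 6 fell and 0 rose with TGF-β1, and 4 rose and 6 fell with BMP4. Of all genes, 4.21% fell and 2.54% rose with TGF-β1, and 3.45% rose and 4.51% fell with BMP4. The inhibitor genes Dkk1 (-2.57), Wif1 (-1.59) and Notum (-1.48) were lower and rose with BMP4, and Rspo3, which amplifies Wnt signals, was lower too (-1.07). Wnt11 (0.61) was higher and fell with BMP4, but was not called without the 3 arrays numbered 2 (adjusted p = 0.12). The higher count was 2 without BMP4 replicate 1. Of 24 Notch pathway genes, 2 were lower and 2 higher (8.3% each, not far above 5.38% and 4.73% of all genes). The effector genes Hey2 (-1.57) and Hey1 (-1.44) were lower and Notch1 (0.68) and Dtx4 (0.63) higher. Hey2 rose with both factors, by 0.49 with TGF-β1 and by 2.06 with BMP4. In the homeobox list of 36, Dlx2, Msx2, Msx1 and Dlx3 (-1.17) rose with BMP4, whereas Irx2 (1.02) and Irx1 (0.67) rose with TGF-β1 and Irx3 (0.93) fell with BMP4. Of 15 insulin-like growth factor genes, 5 were higher with TGF-β1 (33.3%) and 1 lower (6.7%, near the share of all genes), and 8 and 2 with the block. Among the 5 were Igfbp3 (1.66), Igf1 (1.48) and Igfbp5 (1.42). Igf1 fell by 2.18 and Igfbp5 by 2.42 with BMP4. Crabp2, which carries retinoic acid to its receptor, was higher (1.98) and fell by 2.34 with BMP4, and Cyp26b1, which degrades retinoic acid, was lower (-1.50) and rose by 2.13.

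Guidance cues of the semaphorin family Sema3f (1.85), Sema3a (0.97) and Sema3e (0.71) and the receptor gene Epha4 (1.17) were higher with TGF-β1, and Ntn4 (-1.75) and Sema6d (-1.05) were lower. All of these genes were called against untreated cultures with BMP4 and not with TGF-β1. Il33, a cytokine gene, was 4.95-fold higher (2.31) and fell by 2.48 with BMP4. Of 24 adipogenic and lipid genes, 9 were lower with TGF-β1 (37.5%), including the transcription factor genes Cebpd (-1.25) and Pparg (-0.99), which rose with BMP4, and Cebpa. The 1 higher member (4.2%, near the share of all genes) was Gpat3. Immediate early genes were lower in 7 of 21 cases (33.3%), with Fosl2 (-1.51), Nr4a3 (-1.16) and Dusp1 (-1.14) in front, and all 7 rose with BMP4. Jund (0.56) was the 1 higher member (4.8%, near the share of all genes), but was not called by limma for the mean of its probe sets (adjusted p = 0.057). With the block 6 members were higher and 7 lower. Of 33 adhesion genes, 6 were higher (18.2%), led by Cldn11, Cldn1 (1.63) and Cdh3 (1.15). Another 2 were lower (6.1%, near the share of all genes), Cdh6 (-1.15) and Alcam (-0.74). With the block, 11 were higher and 3 lower, the 3 near the 9.3% of all genes called lower in that model. Contractile genes of smooth muscle had a difference above 0 in 19 of 19 members with a median of 0.51, but 4 were called (21.1%), 12 with the block. That count was 2 without BMP4 replicate 2, 2 without BMP4 replicate 3 and 1 without TGF-β1 replicate 1.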
